A study of Mus musculus with 32 samples.

Results

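Agap1, Cdkal1, Dennd1a, Dip2c, Dock1, Exoc6b, Fndc3b, Magi1 and Msi2 are 9 long mouse genes that were chosen by their RNA-seq values, because each read lower after cisplatin than in controls in kidney, liver, lung and spleen. They are 9 of the 25041 genes of the RNA-seq tables that could be placed on the genome, and all 9 were measured in all 3 assays and passed every filter on low counts. The mice were wild-type C57BL/6J females aged 6 to 7 months, with no transgene or deletion in any group. Cisplatin was given once by intraperitoneal injection at 10 mg/kg at ZT1 (zeitgeber time, hours after lights on), controls received saline, and organs were taken at ZT5, which is 4 h later, although the labels of all 32 samples read 2 h after treatment. RNA-seq covered control and cisplatin mice with 2 libraries per organ and arm, while Damage-seq and XR-seq covered cisplatin mice only, with 2 libraries per organ. Whole organs were used, so fewer cells of a type and less RNA per cell cannot be told apart. The choice of these genes rests on the RNA-seq contrast, so the RNA values of the 9 are given as a description, without a test. Their strand readouts in XR-seq and Damage-seq played no part in the choice and are tested. A fall can be read only where RNA is present, so the choice favours genes expressed in every organ. The gene sets set against the 9 below were not matched for expression. The part of expression in the members' strand ratios was not tested.

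Cisplatin mainly links neighbouring guanines of a DNA strand. Such a GG adduct on the transcribed strand (TS) stops RNA polymerase II, and the stalled polymerase recruits transcription-coupled repair, whereas adducts on the non-transcribed strand (NTS) and outside genes depend on global genome repair. In both cases nucleotide excision repair cuts out a short oligonucleotide that carries the adduct. XR-seq sequences these excised oligonucleotides, Damage-seq maps the adducts still present at the time of sampling, and RNA-seq of polyadenylated RNA counts transcripts. A long gene offers more GG sites to a polymerase that has to cross the whole gene before a finished transcript is released.

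The 9 genes were between 295 kb (Fndc3b) and 664 kb (Cdkal1) long, with a median of 451 kb against 20.6 kb for the 18640 protein-coding genes. Introns made up 96.03% to 98.3% of each gene. They lay on 7 chromosomes, 3 on the plus strand and 6 on the minus strand. In GRCm38 (mm10) coordinates with GENCODE M21 models, Agap1 spanned chr1:89454806-89897617, Dennd1a chr2:37798991-38287390, Fndc3b chr3:27416162-27711307, Exoc6b chr6:84618487-85069513 and Magi1 chr6:93675455-94283917. Dock1 spanned chr7:134670654-135173639, Msi2 chr11:88339382-88718513, Dip2c chr13:9276528-9668928 and Cdkal1 chr13:29191746-29855674. Each strand of a member held between 17064 and 33779 GG dinucleotides, and the strands of one gene differed by at most 6.53%. The GG density ran from 46.9 (Exoc6b) to 69.5 (Msi2) per kb of strand, with a median of 52.5 against 59.9 over all genes, and Agap1, Dock1 and Msi2 lay above the latter. RNA-seq reads carried no strand, and 5 members overlapped a gene counted in the files on the opposite strand (Agap1 with 4933400F21Rik, Dennd1a with Crb2, Dip2c with Gm48888, Dock1 with Fam196a and Msi2 with Mir378b), from which their RNA reads cannot be told apart where exons meet. In the shared stretch the NTS of a member is the TS of the other gene. The part of such genes in the members' NTS reads was not tested.

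The 3 stretches of intron printed here show where GG adducts can form and why the strands are read apart. Each is 120 bases of GRCm38 at the middle of the gene (for Exoc6b 1000 bases past the middle, clear of an exon), read 5′ to 3′ on the coding strand. Capitals mark GG, the site of a GG adduct on the NTS, and CC, whose complement is a GG on the TS. Sites of other cisplatin adducts, such as AG, are not marked. The genes shown are the longest member, the member with the most GG per kb and the one with the fewest.
Cdkal1, chr13:29523650-29523769, minus strand: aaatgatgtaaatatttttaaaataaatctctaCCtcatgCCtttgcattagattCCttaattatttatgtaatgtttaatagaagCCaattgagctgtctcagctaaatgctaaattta
Msi2, chr11:88528887-88529006, minus strand: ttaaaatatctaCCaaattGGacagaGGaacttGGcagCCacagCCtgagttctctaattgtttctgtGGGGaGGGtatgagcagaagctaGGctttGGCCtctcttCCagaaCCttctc
Exoc6b, chr6:84844940-84845059, minus strand: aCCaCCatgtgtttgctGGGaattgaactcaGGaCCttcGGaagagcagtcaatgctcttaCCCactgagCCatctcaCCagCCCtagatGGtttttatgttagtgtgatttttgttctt
Counted with overlap, the Cdkal1 stretch had 0 GG on the NTS and 4 on the TS, the Msi2 stretch had 10 and 6, and the Exoc6b stretch had 5 and 9. Over such short distances the strands differed widely, while over whole genes they were nearly balanced, and every strand ratio below is per GG of its own strand.

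RNA-seq libraries held 15619474 to 162270280 reads on genes, XR-seq libraries 10658675 to 59779770 and Damage-seq libraries 1571167 to 6441367. The control pairs of lung and of spleen differed by little more than sampling noise (chi-square over its degrees of freedom 2.75 and 2.98, against 39.3 to 349 for the other RNA-seq pairs), so each pair was summed and counted as 1 control sample. Cdkn1a, a p53 target induced by cisplatin damage and used here as a check of the labels, was higher in both cisplatin libraries than in every control library of each organ, with log2 fold changes of 4.33 ± 0.75 in kidney (adjusted p = 0.0129), 3.05 ± 0.70 in liver (adjusted p = 0.0528), 1.90 ± 0.88 in lung (adjusted p = 0.727) and 1.43 ± 0.85 in spleen (adjusted p = 1; SE and edgeR adjusted p throughout). Defining markers of each organ were high in its own libraries. In lung, 6 of 6 B cell and 6 of 6 T cell markers were lower in both cisplatin libraries, with summed levels of 86.9 to 117 against 379 to 386 CPM (counts scaled to a common library size; B cell) and 38.6 to 46.1 against 140.3 to 143 CPM (T cell). In the same libraries 5 of 5 high endothelial venule markers (76.1 to 89.0 against 259 to 260 CPM), 5 of 6 erythroid markers (966 to 1325 against 2237 to 2375 CPM), 4 of 6 kidney markers (1.07 to 8.37 against 57.7 to 60.5 CPM) and 4 of 6 liver markers (31.7 to 84.4 against 121 to 153 CPM) were lower too. So were 4 of 6 endothelium markers (2055 to 2072 against 2368 to 2375 CPM) and 4 of 6 fibroblast markers. The liver and fibroblast lists each also had 1 marker that was higher in both cisplatin libraries. The summed fibroblast levels overlapped between the arms (864 to 1224 against 1213 to 1223 CPM). In spleen, 8 of 8 pancreas markers were higher in both cisplatin libraries (1440.1 to 1929 CPM summed, against 0.577 to 0.620 CPM in controls, where Amy2a5 was at 0), as were 6 of 6 lung markers (41.9 to 43.6 against 23.8 to 26.9 CPM) and 5 of 6 T cell markers (705 to 742 against 588 to 592 CPM). In kidney, 6 of 6 B cell markers and 5 of 6 liver markers were lower in both cisplatin libraries (B cell 6.27 to 7.18 against 12.4 to 18.4 CPM, liver 192 to 244 against 297 to 419 CPM). In liver, 5 of 6 lung markers were higher in both cisplatin libraries (58.5 to 64.5 against 34.4 to 42.0 CPM). Both cisplatin libraries lay below every control sample in 39.3% of all genes tested in lung and 25.0% in kidney. The share lying above was not counted. By the threshold for a call given below, 7 pancreas markers were called in spleen, and 2 B cell and 1 high endothelial venule marker in lung. In kidney 1 B cell marker was called, in liver 1 lung marker, and none in the other lists named here. The part of any of these shifts in the members' RNA values was not tested.

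The RNA of all 9 genes was lower after cisplatin in all 4 organs, and in none of the 36 gene and organ pairs did the cisplatin and control samples overlap. Both cisplatin libraries also lay below every control sample in 25.0% of all 19100 genes tested in kidney, 39.3% in lung, 19.7% in liver and 42.2% in spleen, and in 7.2% in each of the organs at once. The median member stood at 16.4% of control in liver, 31.02% in lung, 31.4% in kidney and 39.99% in spleen. Every member had its lowest log2 fold change in liver. The threshold for a call was a fold change beyond 0.4 on the log2 scale at an adjusted p under 0.05. By it, 9 of 9 members were called lower in liver (2.3% of the 19100 genes tested), 7 in kidney (1.41%), 2 in lung (0.366%) and 1 in spleen (0.0157%), and since this contrast chose the genes, nothing is read from these counts or from the lack of overlap. No gene at all was called lower in all 4 organs by edgeR, 94 were at an unadjusted p under 0.05 (all 9 members among them), and DESeq2 called 3 at the adjusted threshold. The counts of calls depended on single libraries, with 0 to 8 members called in kidney, 8 or 9 in liver, 0 to 6 in lung and 0 or 1 in spleen when 1 library was left out, and with liver fitted on its own no gene was called there. Over the other settings tried, between 1 (with total counts as library sizes) and 9 members (with each library counted as a replicate and a replicate block) were called in lung and between 0 and 6 in spleen, the latter with the same block.

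The 9 were not the most strongly lowered genes of the series. With genes ranked by the least negative of their 4 log2 fold changes, Agap1 had rank 19 of 19100 with -1.67 in kidney, and Dock1, the last of the members, rank 100 with -0.98 in kidney. Calls in 3 or more organs were made for 14 genes, of which Cdkal1 and Dip2c were members. A log2 fold change below -1 in all 4 organs was found for 95 genes, 8 of them members. Of those 95 genes 86.3% were 100 kb or longer, compared with 12.1% of all genes tested, and their median length was 320.1 kb.

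Membrane traffic and its GTPases account for Agap1, Dennd1a, Exoc6b and Dock1. Agap1 encodes a GTPase-activating protein for ARF GTPases that acts in endosomal sorting. It read 51.4 and 78.1 CPM in the controls and 17.8 and 22.8 CPM after cisplatin in kidney, and 11.1 and 16.03 CPM in the controls and 1.23 and 3.24 CPM after cisplatin in liver. It read 61.5 CPM in the summed control and 15.3 and 13.3 CPM after cisplatin in lung, and 29.1 CPM in the summed control and 6.31 and 9.42 CPM after cisplatin in spleen. The log2 fold changes were -1.67 ± 0.39, -2.61 ± 0.43, -2.10 ± 0.45 and -1.88 ± 0.45 in that order of organs, the most even change of the 9 (SD over organs 0.40). Dennd1a encodes a guanine nucleotide exchange factor for Rab35 on clathrin-coated membranes. Its level was 40.7 and 57.4 CPM in the controls and 12.2 and 20.7 CPM after cisplatin in kidney, and 34.8 and 36.9 CPM in the controls and 6.11 and 9.23 CPM after cisplatin in liver. In lung it was 20.1 CPM in the summed control and 6.86 and 5.602 CPM after cisplatin, and in spleen 25.2 CPM in the summed control and 12.001 and 11.03 CPM after cisplatin. Its log2 fold changes of -1.57 ± 0.31, -2.23 ± 0.32, -1.69 ± 0.35 and -1.13 ± 0.36 include the smallest spleen change of the 9.

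Exoc6b encodes a subunit of the exocyst, the complex that tethers secretory vesicles to the plasma membrane. The gene measured 24.4 and 38.1 CPM in the controls and 7.46 and 9.95 CPM after cisplatin in kidney, and 17.8 and 17.8 CPM in the controls and 1.51 and 2.09 CPM after cisplatin in liver. For lung the values were 41.1 CPM in the summed control and 12.6 and 12.4 CPM after cisplatin, and for spleen 20.2 CPM in the summed control and 7.92 and 9.58 CPM after cisplatin. Its liver libraries after cisplatin kept about 10.1% of the control level (log2 -3.31 ± 0.32), while kidney, lung and spleen changed by -1.84 ± 0.28, -1.71 ± 0.32 and -1.20 ± 0.32. Dock1 encodes an exchange factor that, together with ELMO proteins, activates Rac1 in cell migration and the uptake of dying cells. Dock1 stood at 72.1 and 96.02 CPM in the controls and 38.4 and 47.03 CPM after cisplatin in kidney, and at 36.999 and 28.9 CPM in the controls and 6.82 and 7.36 CPM after cisplatin in liver. The lung samples held 65.7 CPM in the summed control and 18.4 and 18.6 CPM after cisplatin, and the spleen samples 15.5 CPM in the summed control and 4.64 and 5.28 CPM after cisplatin. Its kidney change (-0.98 ± 0.22) was the smallest of all 36, with 50.9% of the control level left, against -1.82 ± 0.26 in lung, -2.22 ± 0.24 in liver and -1.64 ± 0.26 in spleen.

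Magi1 encodes a scaffold of tight junctions and Fndc3b a membrane protein with fibronectin type III domains. Magi1 was at 29.4 and 31.99 CPM in the controls and 9.25 and 9.302 CPM after cisplatin in kidney, and at 52.4 and 51.3 CPM in the controls and 9.09 and 9.84 CPM after cisplatin in liver. Lung gave 43.6 CPM in the summed control and 16.7 and 20.7 CPM after cisplatin, and spleen, where it was scarcest, 8.498 CPM in the summed control and 1.16 and 2.76 CPM after cisplatin. The log2 fold changes were -1.73 ± 0.33, -2.45 ± 0.34, -1.22 ± 0.37 and -2.09 ± 0.38, so spleen showed the largest and lung the smallest change of the 9 genes in those organs. Fndc3b measured 73.3 and 78.1 CPM in the controls and 23.6 and 29.7 CPM after cisplatin in kidney, and 56.5 and 60.4 CPM in the controls and 6.53 and 4.95 CPM after cisplatin in liver. It held 88.3 CPM in the summed control and 34.3 and 38.7 CPM after cisplatin in lung, and 39.7 CPM in the summed control and 15.05 and 20.1 CPM after cisplatin in spleen. In liver the gene was 10.2-fold lower (log2 -3.35 ± 0.25), and in the other organs it changed by -1.50 ± 0.23, -1.27 ± 0.26 and -1.18 ± 0.26, the widest spread over organs of the 9 (SD 1.02).

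Cdkal1 and Msi2 act on RNA. Cdkal1 encodes a methylthiotransferase that modifies lysine tRNA, and its locus is linked to type 2 diabetes in humans. Its level was 21.9 and 20.997 CPM in the controls and 4.57 and 5.31 CPM after cisplatin in kidney, and 13.4 and 18.9 CPM in the controls and 2.18 and 2.198 CPM after cisplatin in liver. Lung had 11.6 CPM in the summed control and 1.63 and 1.91 CPM after cisplatin, and spleen 15.2 CPM in the summed control and 5.44 and 6.67 CPM after cisplatin. It showed the largest kidney and lung changes of the 9 (-2.11 ± 0.28 and -2.70 ± 0.31), with -2.88 ± 0.29 in liver and -1.32 ± 0.31 in spleen. Msi2 encodes an RNA-binding protein of the Musashi family that sustains blood stem cells. The Msi2 values were 94.1 and 96.9 CPM in the controls and 32.7 and 43.2 CPM after cisplatin in kidney, and 27.4 and 23.1 CPM in the controls and 3.88 and 6.15 CPM after cisplatin in liver. They were 90.7 CPM in the summed control and 30.4 and 35.04 CPM after cisplatin in lung, and 75.4 CPM in the summed control and 29.97 and 33.6 CPM after cisplatin in spleen. Its log2 fold changes were -1.33 ± 0.25, -2.33 ± 0.26, -1.47 ± 0.28 and -1.25 ± 0.28 in that order of organs, and its control level of 9.18 RPKM in kidney was the highest control level per exon length among the 9. Dip2c encodes a member of the disco-interacting protein family. It was measured at 30.2 and 34.5 CPM in the controls and 8.44 and 9.75 CPM after cisplatin in kidney, and at 29.2 and 28.04 CPM in the controls and 3.12 and 2.47 CPM after cisplatin in liver. In lung the samples read 33.1 CPM in the summed control and 11.6 and 12.8 CPM after cisplatin, and in spleen 9.85 CPM in the summed control and 2.58 and 2.73 CPM after cisplatin. Its liver change (-3.35 ± 0.25) was the largest of all 36, a 10.2-fold lower level, and the changes elsewhere were -1.83 ± 0.22 in kidney, -1.44 ± 0.25 in lung and -1.89 ± 0.26 in spleen.

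**Figure D1:**
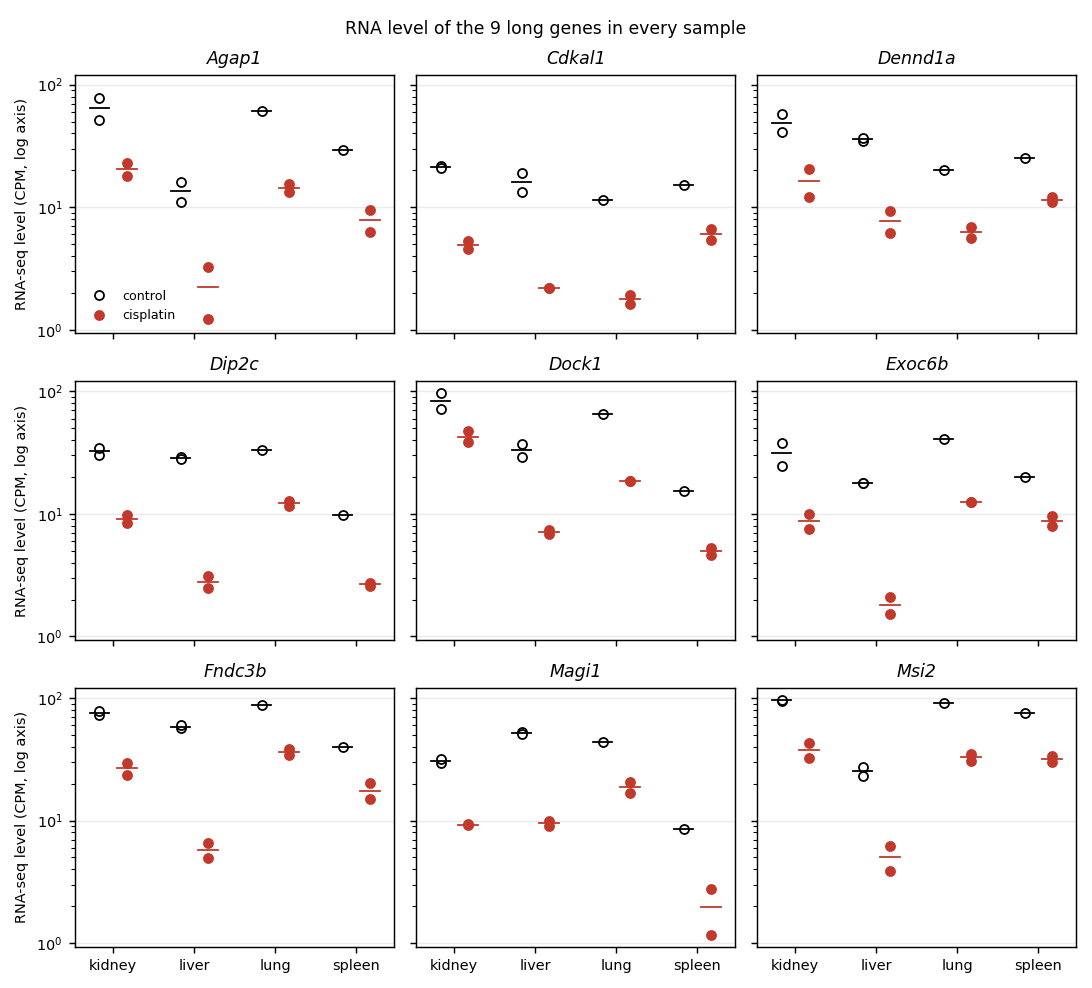
RNA-seq level of each gene in CPM (log axis) by organ, with open points for controls, filled points for cisplatin and a bar at each mean; lung and spleen controls are 1 summed sample each. In every panel and organ the cisplatin points lie below the control points, with the widest gaps in liver.

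Per kb of exon, the members' control means ran from 0.772 RPKM (Agap1 in liver) to 9.18 RPKM (Msi2 in kidney). Even the lowest sample held 26 reads (Agap1 in a liver cisplatin library). Other genes of the same length range also read lower after cisplatin. The 406 other genes between 295.1 and 663.9 kb that were tested had median log2 fold changes of -0.87 in kidney, -0.99 in lung, -1.17 in liver and -0.71 in spleen. The members' medians were -1.67, -1.69, -2.61 and -1.32 in the same order, which follows from how they were picked. Genes under 100 kb, 16770 in number, had medians between 0.00 (spleen) and 0.06 (kidney and liver). Of the same-length genes, 85.96% in kidney, 87.2% in lung, 74.6% in liver and 85.5% in spleen lay below 0.

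**Figure D2:**
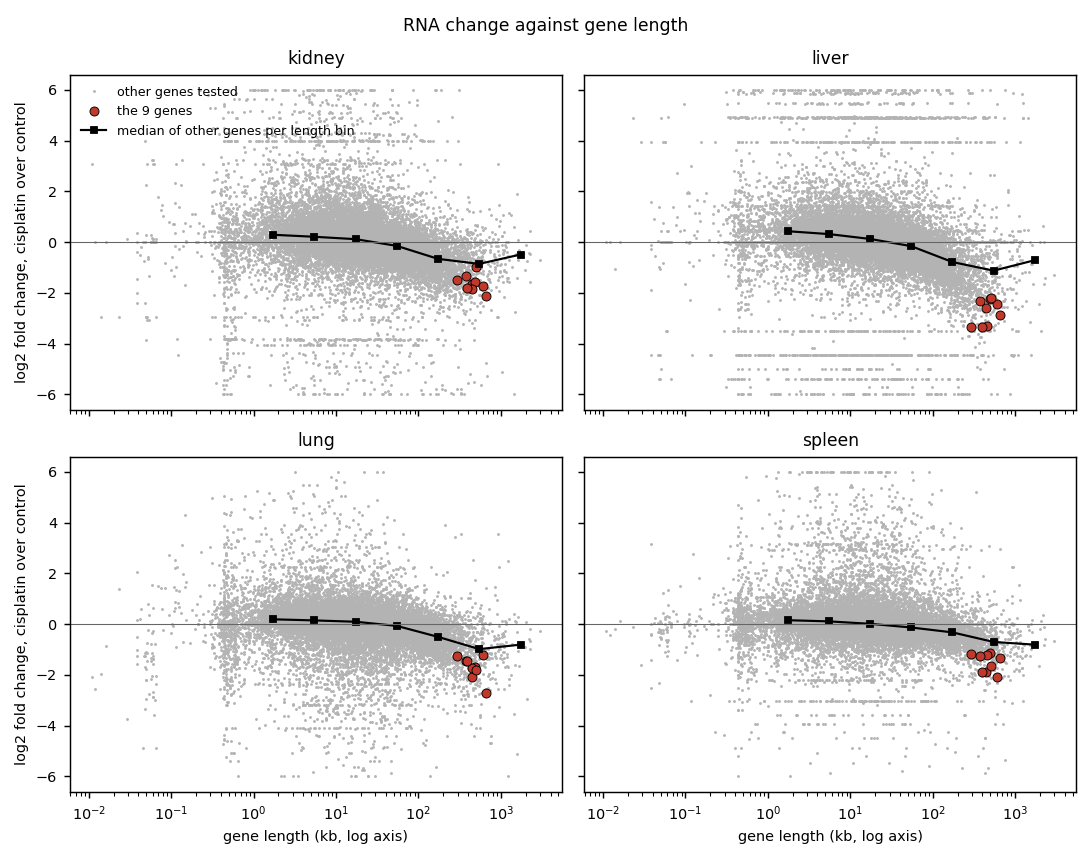
Log2 fold change of cisplatin over control against gene length in kb (log axis) for every gene tested, by organ, with the 9 members as large points and the median of the other genes in each length bin as a line; values beyond 6 in either direction are drawn at 6. Horizontal rows of points are genes with few reads. From 100 kb the line lies below 0 in every organ, and the 9 genes lie at or below it.

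The genes whose 4 changes lay closest to the members' median were themselves long. By Euclidean distance over the 4 organs' log2 fold changes they were Fbxl17 (distance 0.43, 442.6 kb), Galnt18 (0.45, 308.3 kb), Erbb4 (0.48, 1076 kb), Erc1 (0.49, 277.4 kb) and Tbc1d5 (0.50, 446.2 kb). The members themselves lay 0.44 to 1.14 from that median, and 115 other genes were nearer than the farthest member.

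Relatives and partners of the members were followed as a list of 49 genes, among them other ARF GTPase-activating proteins, DOCK and ELMO proteins, exocyst subunits, and the paralogs of Dip2c, Fndc3b, Magi1 and Msi2, and 48 of them passed the filter on low counts. In liver 10 of the 48 were called lower and none higher, in kidney 2 lower and none higher, in lung 1 lower and none higher, and in spleen none lower by edgeR or DESeq2 and none higher by edgeR, whereas by edgeR 15, 18, 10 and 3 in kidney, liver, lung and spleen were lower at an unadjusted p under 0.05, and 4, 1, 0 and 0 were higher. Calls lower made up 2.3% of all genes in liver, 1.41% in kidney, 0.366% in lung and 0.0157% in spleen. Calls higher made up 1.71% of all genes in kidney, 0.408% in liver, 0% in lung (edgeR, with 160 genes higher at an unadjusted p under 0.05 and 7 called by DESeq2) and 0.12% in spleen. Among the liver calls were Asap1, Asap2, Dock4, Dock8, Elmo1, Exoc2 and Exoc4, named after their values were seen, and the liver calls ran from -1.81 ± 0.27 (Dock8) to -3.21 ± 0.38 (Dock4). Elmo1, the partner of DOCK proteins in Rac activation, was called in lung too (-2.28 ± 0.32, adjusted p = 0.0317), and in kidney the calls were Dennd1b (-1.74 ± 0.27) and Exoc6 (-1.52 ± 0.30), the paralogs of Dennd1a and Exoc6b, also named after their values were seen. All 13 calls were on genes of 100 kb or more. When 1 library was left out, the lower calls among relatives numbered 0 to 9 in kidney, 4 to 23 in liver (the extremes without control replicate 1 and without cisplatin replicate 1 of liver) and 0 to 4 in lung. The 22 relatives of that length had medians of -1.04, -1.55, -0.79 and -0.48 in kidney, liver, lung and spleen, and the 26 shorter ones 0.03, -0.15, 0.02 and -0.11.

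Excision repair was far stronger on the TS than on the NTS in all 9 genes. The XR-seq question was whether their TS was repaired preferentially, and the measure was the reads per GG on the TS over those on the NTS in 8 libraries. All 9 members were called TS above NTS, with the lowest ratio in any library at 5.45 (Dip2c in liver) and the highest at 80.2 (Exoc6b in spleen). Such a call was made for 60.6% of the 21610 genes tested, and a call of TS below NTS for 8.84%. Of the 406 same-length genes tested in RNA-seq, 74.9% were called TS above NTS. The members' median ratio was 22.2, against 5.101 for all genes and 6.34 for the 406 same-length genes tested in RNA-seq. Neither set was matched to the members for expression. Each member's ratio lay above that of 71.2% (Magi1) to 87.8% (Exoc6b) of all genes.

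Among the traffic genes, Exoc6b had the highest ratio of the 9, 32.01 (log2 5.0004 ± 0.29, edgeR adjusted p = 3.98e-09). Its libraries read 22.6 and 22.5 in kidney, 32.5 and 31.4 in lung, 28.6 and 19.9 in liver and 80.2 and 51.02 in spleen, with only 42 to 455 NTS reads per library behind them. Dock1 followed with 25.8 (log2 4.69 ± 0.25, edgeR adjusted p = 2.94e-09). Its kidney libraries, 15.6 and 12.1, lay below 38.5 and 32.7 in lung, 32.5 and 29.4 in liver and 28.8 and 29.5 in spleen. Dennd1a reached 22.2 (log2 4.48 ± 0.40, edgeR adjusted p = 1.69e-07), and its organs did not overlap at all, since kidney held 6.26 and 8.51, liver 21.6 and 13.2, lung 36.996 and 32.2 and spleen 48.3 and 64.3. Agap1 had a ratio of 17.2 (log2 4.10 ± 0.22, edgeR adjusted p = 2.93e-09), from 10.5 and 10.1 in kidney through 26.1 and 14.7 in liver and 18.6 and 22.2 in spleen to 21.7 and 20.7 in lung.

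Magi1 had the lowest ratio of the 9, 14.7 (log2 3.88 ± 0.26, edgeR adjusted p = 1.26e-08), with 8.24 and 6.28 in kidney, 15.3 and 16.8 in spleen, 18.99 and 20.05 in lung and 23.2 and 17.7 in liver. For Fndc3b the ratio was 22.5 (log2 4.49 ± 0.30, edgeR adjusted p = 9.61e-09), and its libraries read 9.998 and 9.09 in kidney, 37.6 and 34.5 in lung, 26.2 and 22.5 in liver and 24.8 and 35.4 in spleen. Both genes had kidney below every other library. The tRNA-modifying gene Cdkal1 stood at 23.2 (log2 4.54 ± 0.35, edgeR adjusted p = 3.75e-08), going from 9.24 and 8.93 in kidney over 25.6 and 18.1 in liver and 28.3 and 27.1 in lung to 66.6 and 42.9 in spleen. Msi2 stood at 17.2 (log2 4.11 ± 0.29, edgeR adjusted p = 1.77e-08), with 8.2 and 5.79 in kidney and 27.8 and 21.3, 21.9 and 17.3 and 25.5 and 25.8 in liver, lung and spleen. Dip2c had another order of organs. Its ratio of 15.7 (log2 3.97 ± 0.35, edgeR adjusted p = 1.29e-07) was lowest in liver (8.22 and 5.45), then kidney (10.5 and 11.04), with spleen (31.2 and 24.1) and lung (39.6 and 23.7) higher and overlapping each other. The low liver ratio went with a high NTS level, 2.56 and 3.41 CPM per 1000 GG against 0.354 to 1.06 elsewhere. The TS level of Dip2c was highest in liver too, 21.05 and 18.6 against 11.0 to 14.6 elsewhere.

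**Figure D3:**
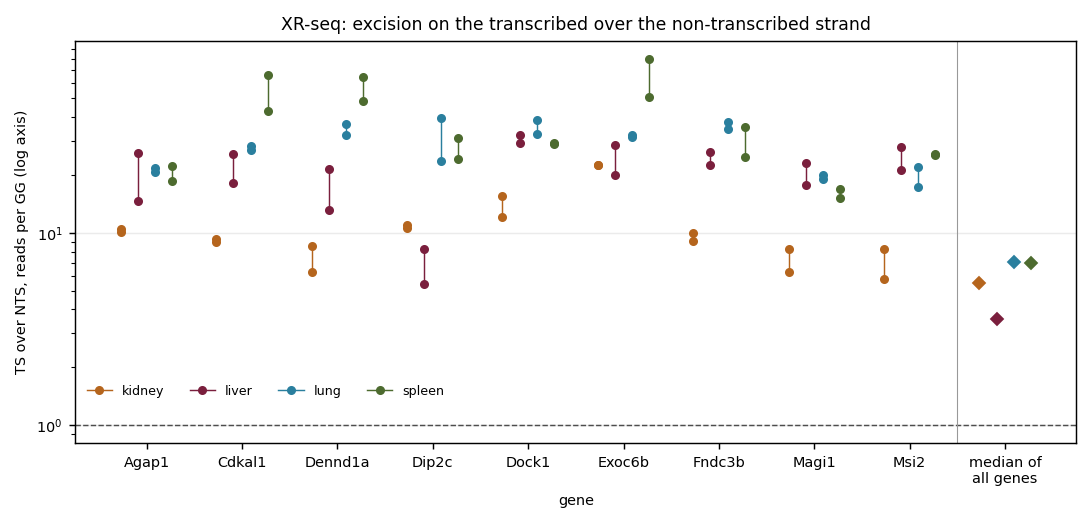
XR-seq reads per GG on the TS over those on the NTS (log axis) for each gene and library, joined by organ, with the median of all genes by organ at the right and a dashed line at 1. All 72 member values lie above 1, and the kidney points lie lowest in 7 of the 9 genes, while kidney is not the lowest organ for the median of all genes.

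The TS to NTS ratio of XR-seq differed between organs for all 9 members, where 21.8% of all genes and 56.2% of the 406 same-length genes tested in RNA-seq were called. The edgeR adjusted p was 0.000975 for Dennd1a, 0.00158 for Msi2, 0.00162 for Fndc3b, 0.00163 for Cdkal1, 0.0028 for Dip2c, 0.00551 for Magi1, 0.00615 for Dock1, 0.0207 for Exoc6b and 0.0408 for Agap1. The Agap1 call was lost with DESeq2 (adjusted p = 0.0534) and with edgeR when any kidney, lung or spleen library was left out (adjusted p = 0.0618 to 0.135), and the Exoc6b call was lost without liver replicate 2, lung replicate 1 or 2, or spleen replicate 1 (edgeR adjusted p = 0.0511 to 0.106). In 7 members (all but Dip2c and Exoc6b) both kidney libraries lay below all 6 others, and in 3 (Cdkal1, Dennd1a and Exoc6b) both spleen libraries lay above all others, compared with 9.58% (kidney) and 8.51% (spleen) of all genes. The median of the members was 9.53 in kidney, 21.5 in liver, 29.2 in spleen and 30.6 in lung, whereas over all genes it was 5.51, 3.57, 7.001 and 7.06. On each strand apart, the members took 0.228% of NTS reads in both kidney libraries and 0.119% to 0.160% in the others, and 0.333% to 0.381% of TS reads in kidney against 0.388% to 0.522% elsewhere, while they held 0.393% of the GG of all genes.

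The level of excision on the TS also differed between organs for all 9 (edgeR adjusted p from 1.21e-07 for Magi1 to 0.000823 for Fndc3b), as it did for 58.3% of the 19731 genes tested. Values here are CPM of TS reads per 1000 GG, with the reads of both strands as library size, whereas the tests used TMM factors. Both are relative to the reads of a library, so they do not compare amounts of excision between organs. Msi2 gave the highest levels of all, 50.7 and 47.1 in spleen, and its kidney, liver and lung libraries lay together between 22.1 and 25.2. Spleen also led for Dennd1a (25.9 and 24.3, against 7.31 to 15.0 elsewhere), Cdkal1 (16.1 and 16.02, against 6.11 to 10.8) and Exoc6b (14.9 and 13.4, against 8.95 to 11.6). Liver led for Magi1 (18.5 and 16.3, against 5.71 to 8.42), Dip2c (21.05 and 18.6, against 11.0 to 14.6) and Dock1 (18.7 and 16.4, against 8.43 to 15.2). In these 7 genes, and for lung in Agap1, the leading organ did not overlap any other, which held for 55.2% of all genes too. Fndc3b had liver at 36.8 and 27.3 and lung at 29.4 and 29.3, which overlapped, above kidney at 27.3 and 24.03 (27.28 at most, against 27.27 in the lower liver library) and spleen at 21.9 and 21.2. Agap1 was led by lung (29.9 and 26.8), followed by liver (23.9 and 22.5), kidney (22.4 and 18.6), whose higher library all but met the lower one of liver, and spleen, the lowest (15.4 and 15.6). The organ with the highest TS level was the one with the highest control RNA level in CPM for 1 of the 9 members (Magi1, liver), compared with 40.0% of 18233 genes. Set against the RNA level after cisplatin, it was 1 other member (Cdkal1, spleen), compared with 42.5% of genes.

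**Figure D4:**
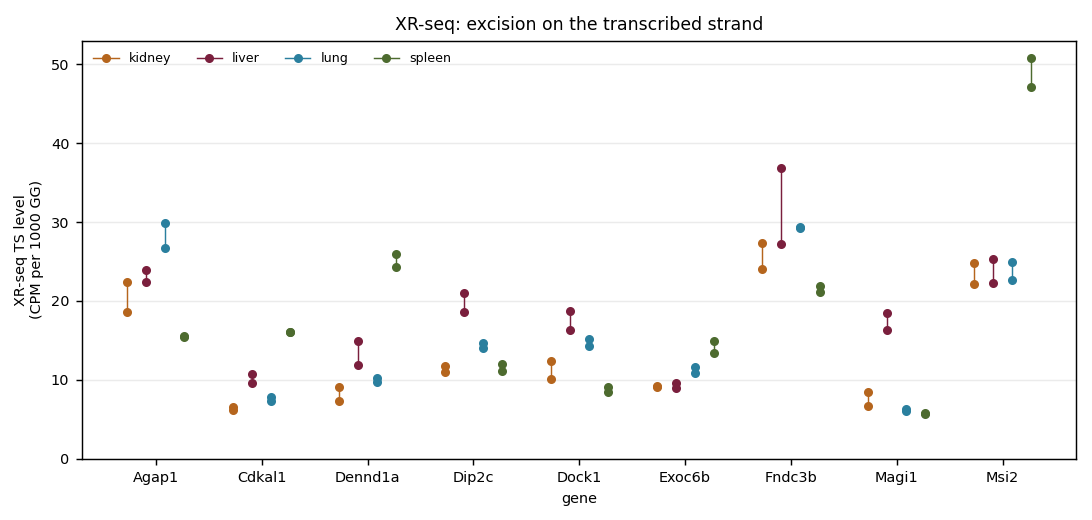
XR-seq level on the TS in CPM per 1000 GG for each gene and library, joined by organ. Spleen points stand highest for Cdkal1, Dennd1a, Exoc6b and Msi2, liver points for Dip2c, Dock1 and Magi1, and lung points for Agap1.

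Damage that remained at sampling was lower on the TS than on the NTS in 8 of the 9 genes, by a far smaller margin. The call of TS below NTS was made for 33.7% of the 22939 genes tested and the opposite call for 1.75%. The members' median ratio per GG was 0.849, next to 0.855 over all genes and 0.956 over the 406 same-length genes tested in RNA-seq, again without matching for expression. Counts were low, with 181 to 1865 TS reads per member and library. The lowest, Fndc3b in a spleen library, had 181 TS and 266 NTS reads, a TS share of 40.5% with a 95% Wilson interval of 36.04% to 45.1%, which covers counting error only.

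Fndc3b had the widest gap between strands, with a ratio of 0.712 (log2 -0.49 ± 0.06, edgeR adjusted p = 4.88e-07). Its libraries read 0.754 and 0.898 in kidney, 0.667 and 0.568 in lung, 0.681 and 0.683 in liver and 0.704 and 0.788 in spleen. Msi2 came next at 0.773 (log2 -0.37 ± 0.03, edgeR adjusted p = 8.85e-08) and was even over organs, with 0.7797 and 0.839 in kidney, 0.8003 and 0.715 in lung, 0.727 and 0.803 in liver and 0.764 and 0.763 in spleen. In both genes all 8 libraries lay below 1. Dennd1a (0.829, log2 -0.27 ± 0.05, edgeR adjusted p = 3.74e-05) and Agap1 (0.8298, log2 -0.27 ± 0.04, edgeR adjusted p = 4.72e-06) were close to each other. Dennd1a read 0.948 and 0.953 in kidney and 0.699 and 0.767 in spleen, with 0.776 and 0.777 in liver and 0.837 and 0.8602 in lung between them. Agap1 read 0.813 and 0.9496 in kidney, 0.813 and 0.721 in lung, 0.867 and 0.879 in liver and 0.809 and 0.804 in spleen, again with every library below 1.

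Dock1 (0.876, log2 -0.19 ± 0.04, edgeR adjusted p = 0.000106) had 8 of 8 libraries below 1, from 0.805 in lung to 0.949 in kidney. Cdkal1 (0.894, log2 -0.16 ± 0.03, edgeR adjusted p = 0.000262) had 8 of 8 libraries below 1 as well, from 0.822 to 0.989, but DESeq2 did not call it (adjusted p = 0.0551). Dip2c (0.849, log2 -0.24 ± 0.06, edgeR adjusted p = 0.00133) and Exoc6b (0.864, log2 -0.21 ± 0.05, edgeR adjusted p = 0.00153) had 7 of 8 libraries below 1. Their calls were lost in an exact permutation test that flips the signs of the 8 libraries (adjusted p = 0.0508 and 0.0686). Magi1, with 0.937 (log2 -0.09 ± 0.05, edgeR adjusted p = 0.165), was not called, and its libraries were split, 4 above and 4 below 1.

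**Figure D5:**
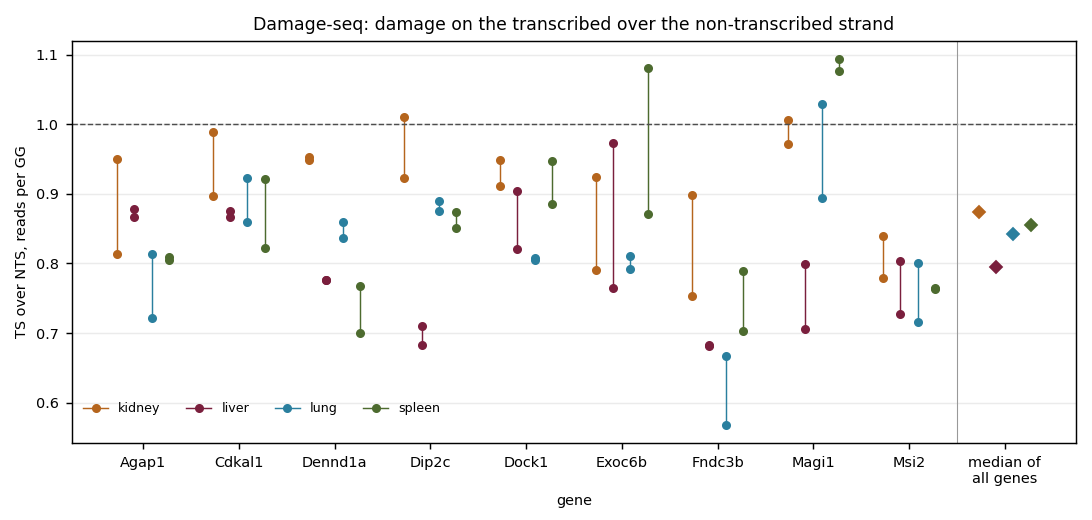
Damage-seq reads per GG on the TS over those on the NTS for each gene and library, joined by organ, with the median of all genes by organ at the right and a dashed line at 1 (the axis does not start at 0). The values run from 0.568 (Fndc3b, lung) to 1.09 (Magi1, spleen), and most lie below 1.

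Across organs the damage ratio was called different for 4 members (Magi1, Dip2c, Fndc3b and Dennd1a), compared with 9.47% of all genes and 23.4% of the 406 same-length genes tested in RNA-seq. Magi1 had the smallest p (edgeR adjusted p = 1.04e-06), its liver libraries at 0.799 and 0.706 lying below 0.972 and 1.01 in kidney, 1.03 and 0.894 in lung and 1.08 and 1.09 in spleen. Dip2c was lowest in liver too (0.7103 and 0.683, against 0.851 to 1.01 elsewhere, edgeR adjusted p = 0.00575). Fndc3b was lowest in lung (0.667 and 0.568, edgeR adjusted p = 0.00687) and Dennd1a in spleen (0.699 and 0.767, edgeR adjusted p = 0.0112). With DESeq2 none of these 4 was called (adjusted p = 0.0824, 0.3, 0.448 and 0.43 in the order Magi1, Dip2c, Fndc3b, Dennd1a). With edgeR, Dip2c was lost without either liver library (adjusted p = 0.126 to 0.151), Fndc3b without kidney or lung replicate 2 (0.202 and 0.132), and Dennd1a without either kidney library or liver replicate 1 (0.0596 to 0.0814).

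Damage on the NTS was near the members' share of GG. They drew 0.383% to 0.421% of the NTS reads of Damage-seq, next to their 0.393% of the GG of all genes. NTS levels of single members ran from 6.57 to 14.4 CPM per 1000 GG. These levels are relative to the reads of a library and do not compare amounts of damage between organs. They were called different between organs for Exoc6b (edgeR adjusted p = 0.00407), Dip2c (0.00465) and Cdkal1 (0.0415), compared with 18% of the 20262 genes tested. Both kidney libraries were lowest in 5 members, compared with 11.0% of all genes, and these included the 3 called, with 6.83 and 6.91 for Exoc6b, 6.57 and 6.83 for Dip2c and 8.26 and 8.09 for Cdkal1. Without kidney replicate 1 the Dip2c call was lost (edgeR adjusted p = 0.0631), and without any library but kidney replicate 2 or spleen replicate 2 that of Cdkal1 was lost (0.0609 to 0.157), as it was with a replicate block (0.0758), while without kidney replicate 2 Dennd1a (0.03) and Msi2 (0.00863) were called.

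Most relatives were called in the same direction on both readouts. Of the 49 listed, 44 were called TS above NTS in XR-seq and none below, and 37 were called TS below NTS in Damage-seq and none above, compared with 60.6% and 33.7% of all genes, with median log2 ratios of 4.12 and -0.53. The largest XR-seq ratio among them was that of Dip2a (log2 6.42), the paralog of Dip2c, and the genes without an XR-seq call were Dock3 (log2 0.75), Acap1 (-0.12), Dennd1c (-0.57), Elmo3 (-0.34) and Fndc3c1 (1.56), all of them named after their values were seen.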

How the data were processed

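The authors deposited raw read counts per gene for 32 libraries: RNA-seq (16, poly-A selected, non-directional kit, STAR and featureCounts), and XR-seq and Damage-seq (8 each, cutadapt, BWA, Picard), the last 2 as counts on the transcribed and non-transcribed strands, on mm10. Strand setting and versions are not given in the sources used here. The current labels were used, after the submitters' correction of lung and spleen RNA labels. Labels name no batch, and where they do not say that libraries came from separate mice, p-values measure only the spread between libraries. The members and gene lists were chosen with earlier results of these data known.

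Counts were tested with edgeR 4.0.16 in R 4.3.3 by quasi-likelihood. RNA-seq used all organs in 1 fit (14 samples after the near-identical control pairs of lung and spleen were summed, so that a lone control is assumed to vary like other groups), filterByExpr, TMM factors and a fold change threshold of 0.4 (log2). RNA levels in CPM use TMM library sizes, and RPKM divides them by exon length. XR-seq and Damage-seq levels in CPM use all reads on genes of a library, both strands together, without TMM factors. The F tests of these levels used TMM factors on the counts of the strand tested. Strand tests blocked by library, with GG per strand as offset, on genes with at least 10 GG per strand and 20 reads. F tests compared the strand ratio, the XR-seq TS level and the Damage-seq NTS level between organs. P-values were adjusted over all genes tested (Benjamini-Hochberg), two-sided, called at 0.05. The scripts were tested on simulated data. DESeq2 1.42.0, other normalizations, filters and an exact sign-flip permutation test were alternatives. The genes named are the members, Cdkn1a, the 5 genes nearest to the members' median, and, from the list of relatives, those called lower in 3 or more organs or higher in 2 or more (none met this), besides those said to be named after their values were seen. Positions are from GENCODE M21, and the sequence is GRCm38. Blank rows of the strand tables (1 per file) were dropped.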

Additional observations from a re-analysis of the deposited data

Results flagged for a closer look

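The TS to NTS ratio of XR-seq was flagged for all 9 genes because a test of the difference itself found that it was not the same in kidney, liver, lung and spleen. The edgeR adjusted p was 0.000975 for Dennd1a, 0.00158 for Msi2, 0.00162 for Fndc3b, 0.00163 for Cdkal1, 0.0028 for Dip2c, 0.00551 for Magi1, 0.00615 for Dock1, 0.0207 for Exoc6b and 0.0408 for Agap1. Kidney had the lowest ratios in 7 of them, compared with 9.58% of all genes. Dip2c, with liver lowest, and Exoc6b, with kidney inside the range of liver, did not follow that order. The ratio was called different between organs for 21.8% of all genes and 56.2% of the 406 same-length genes tested in RNA-seq. The Agap1 call was lost with DESeq2 (adjusted p = 0.0534). With edgeR the Agap1 and Exoc6b calls were lost when certain single libraries were left out.

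The TS to NTS ratio of Damage-seq was flagged for the same reason in 4 genes, with an edgeR adjusted p of 1.04e-06 for Magi1, 0.00575 for Dip2c, 0.00687 for Fndc3b and 0.0112 for Dennd1a. Liver was lowest for Magi1 and Dip2c, lung for Fndc3b and spleen for Dennd1a. Such a call was made for 9.47% of all genes and 23.4% of the 406 same-length genes tested in RNA-seq. DESeq2 called none of the 4 (adjusted p = 0.0824 to 0.448). With edgeR the calls of Dip2c, Fndc3b and Dennd1a were also lost when certain single libraries were left out.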

How the results depend on the processing

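All 828 recomputed RNA log2 fold changes of the 9 genes, over 23 settings, were below 0. The genes were chosen by falls in these same libraries, so nothing is read from that sign. The 108 recomputed XR-seq strand tests kept direction and call. Of 108 Damage-seq strand tests 105 did, and the 3 others (Cdkal1, Dip2c, Exoc6b) kept direction only. Tests between organs held less well. Of 189 in XR-seq (strand ratio and TS level), 178 were unchanged and 11 lost their call. Of 189 in Damage-seq (strand ratio and NTS level), 168 were unchanged, 19 lost their call and 2 gained one. Counts over all genes moved more, and the cause was not tested. Lower and higher RNA calls were 269 and 327 in kidney, 70 and 0 in lung, 440 and 78 in liver and 3 and 23 in spleen. With total counts as library sizes they were 174 and 194 in kidney, 267 and 51 in liver, 24 lower in lung and 0 lower in spleen. With no filter on low counts they were 425 lower in kidney, 332 and 14 in lung, 173 higher in liver and 31 and 47 in spleen. DESeq2 called 140 and 7 in lung and 11 and 39 in spleen. With each organ fitted separately, 410 were lower in kidney, 0 and 0 were called in liver and 357 and 24 in lung. When every library was counted as a replicate, the calls were 633 and 629, 765 and 244, 496 and 41, and 32 and 53 in kidney, liver, lung and spleen. For strands, Damage-seq calls of TS above NTS went from 402 to 662 with no GG offset and to 260 in the exact sign-flip permutation test. With DESeq2 the XR-seq ratio differed between organs for 7635 genes (4712 with edgeR), the Damage-seq ratio for 568 (2173) and the Damage-seq NTS level for 1347 (3648).

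Replicate numbers were not shown to pair libraries: deviations of same-numbered control and cisplatin libraries correlated at 0.29 in kidney, 0.0583 in lung, 0.187 in liver and 0.257 in spleen, with 2 pairs each. With a replicate block and each library counted as a replicate, lower and higher calls were 1035 and 974 in kidney, 897 and 117 in lung, 1106 and 395 in liver and 49 and 69 in spleen. In the tests of XR-seq TS and Damage-seq NTS level between organs, the block lost the Cdkal1 difference in NTS level (edgeR adjusted p = 0.0758). It changed no other level call of the 9 genes. The strand ratios were not refitted with a block.

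Leaving out 1 library gave 14 to 613 lower and 84 to 564 higher calls in kidney, 157 to 1309 and 12 to 705 in liver, 0 to 212 and 0 to 7 in lung, and 0 to 7 and 18 to 93 in spleen. The kidney minimum was without cisplatin replicate 1 of kidney and the liver maximum without cisplatin replicate 1 of liver. For organ differences, the XR-seq ratio was called for 2197 to 9416 genes, the XR-seq TS level for 9218 to 14103, the Damage-seq ratio for 804 to 2415 and the Damage-seq NTS level for 1134 to 4219. The fewest reads behind a member's value were 26 in RNA-seq, 42 (NTS) in XR-seq and 181 (TS) in Damage-seq.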
